A study of Mus musculus with 8 samples.

Results

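The guanylate-binding proteins are interferon-inducible large GTPases, and 9 of their genes, Gbp2, Gbp2b, Gbp3, Gbp4, Gbp5, Gbp6, Gbp7, Gbp8 and Gbp9, are described here in mouse pro-B cells in which the transcription factor EBF1 was targeted for degradation. The genes were chosen by name from 47937 gene IDs in the count tables, with their change in these libraries already known, so their levels and changes are a description and were given no test. The tables hold 12 rows named Gbp, and the other 3, Gbp10, Gbp11 and the pseudogene Gbp2-ps, are given beside them. The cells were transformed by the Abelson murine leukaemia virus (A-MuLV) and have the genotype EBF1-dTAG_N, in which an exogenous modified gene stands in for endogenous EBF1, a factor needed for B-lineage commitment. The dTAG tag is a degron, and dTAG-13 is a small molecule that brings tagged proteins to the degradation machinery. One group of 4 libraries came from cells given DMSO, the solvent, and the other 4 from cells given 0.5 µM dTAG-13 for 6 h, and the submitters describe the 4 as biological replicates. Titles place the DMSO libraries at 0 h, whereas their treatment label gives DMSO for 6 h. Cells of both groups carry the tagged protein, so effects of the compound and of EBF1 loss cannot be told apart, and the sources used here do not say whether the cells are 1 clone.

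Guanylate-binding proteins belong to the dynamin superfamily. They bind and hydrolyse GTP, assemble into coats on the vacuoles of intracellular bacteria and parasites or on bacteria in the cytosol, and promote the release of microbial ligands to inflammasomes. Their genes are classical targets of interferon-gamma: factors activated at the receptor bind the gamma-activated sequence, and interferon regulatory factors bind the interferon-stimulated response element. In the mouse the genes form one cluster on chromosome 3 and another on chromosome 5.

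In the GENCODE vM21 annotation of GRCm38, the chromosome 3 cluster holds 5 of the members on the plus strand. These are Gbp5 (ENSMUSG00000105504.4, chr3:142493978-142522344), Gbp7 (ENSMUSG00000040253.15, chr3:142530342-142550149), Gbp3 (ENSMUSG00000028268.14, chr3:142560026-142573209), Gbp2b (ENSMUSG00000040264.10, chr3:142594847-142619179) and Gbp2 (ENSMUSG00000028270.12, chr3:142620602-142638008). The other 4 lie on the minus strand of chromosome 5: Gbp8 (ENSMUSG00000034438.16, chr5:105014150-105139540), Gbp9 (ENSMUSG00000029298.15, chr5:105077630-105139539), Gbp4 (ENSMUSG00000079363.7, chr5:105115767-105139586) and Gbp6 (ENSMUSG00000104713.4, chr5:105270702-105293698).

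The promoters of the 5 chromosome 3 members are shown because only these members had an entry in the promoter sequences used. Those of Gbp4, Gbp6, Gbp8 and Gbp9 were not analysed here. The sequences shown are RefSeq sequences of build GRCm38.p6, taken from the 250 bases upstream of each start, plus strand, 5′ to 3′. Motifs were searched in all 250 bases. What is printed leaves out bases in GENCODE exons of the gene, except for 12 bases of Gbp2 that hold a match. The windows are chr3:142594597-142594846 for Gbp2b, chr3:142620413-142620613 for Gbp2, chr3:142530086-142530335 for Gbp7, chr3:142496684-142496899 for Gbp5 and chr3:142559794-142560025 for Gbp3. The Gbp5 window lies inside the GENCODE span of the gene, before a RefSeq start downstream of the first annotated base. Capitals mark matches to GAAA, 2 bases of any kind and GAAA, a core of the interferon-stimulated response element (ISRE), and to TTCNNNGAA, a core of the gamma-activated sequence, on either strand.
Gbp2b: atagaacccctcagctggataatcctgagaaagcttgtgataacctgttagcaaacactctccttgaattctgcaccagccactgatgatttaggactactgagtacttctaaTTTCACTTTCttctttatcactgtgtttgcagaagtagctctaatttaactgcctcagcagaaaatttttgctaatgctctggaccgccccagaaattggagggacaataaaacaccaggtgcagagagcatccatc
Gbp2: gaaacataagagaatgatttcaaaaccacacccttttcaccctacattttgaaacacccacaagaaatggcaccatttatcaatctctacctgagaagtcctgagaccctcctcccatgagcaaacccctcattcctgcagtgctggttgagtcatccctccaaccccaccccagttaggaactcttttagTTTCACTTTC
Gbp7: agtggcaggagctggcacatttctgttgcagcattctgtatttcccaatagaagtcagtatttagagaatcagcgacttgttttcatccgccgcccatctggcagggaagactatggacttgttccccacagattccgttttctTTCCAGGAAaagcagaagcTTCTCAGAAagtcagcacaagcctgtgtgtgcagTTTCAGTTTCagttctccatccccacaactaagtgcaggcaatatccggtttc
Gbp5: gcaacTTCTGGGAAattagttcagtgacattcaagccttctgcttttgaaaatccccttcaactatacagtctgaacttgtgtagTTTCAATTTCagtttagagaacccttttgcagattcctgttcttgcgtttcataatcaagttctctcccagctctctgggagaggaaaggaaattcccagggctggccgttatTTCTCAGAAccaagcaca
Gbp3: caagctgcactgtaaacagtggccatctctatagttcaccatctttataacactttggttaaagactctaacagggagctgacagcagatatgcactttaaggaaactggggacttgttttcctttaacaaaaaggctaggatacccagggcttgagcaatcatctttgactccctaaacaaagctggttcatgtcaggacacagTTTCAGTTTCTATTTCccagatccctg
The ISRE core occurred on the reverse strand in the window of all 5 genes, whereas 978 of 32851 RefSeq promoter windows of the same length (2.98%) held it on either strand. Its distance before the RefSeq start was 59 bases in Gbp2, 137 in Gbp2b, 53 in Gbp7 and 165 in Gbp5. The Gbp2 match lies inside the first GENCODE exon, downstream of the GENCODE start of the gene. Gbp3 had a pair of overlapping matches, at 45 and 39 bases, and its other annotated start, of the 6 starts in all, had none; that window begins inside an exon, so none of it is printed. The match TTTCACTTTC was spelled identically in Gbp2 and Gbp2b, and TTTCAGTTTC identically in Gbp7 and Gbp3. TTCNNNGAA occurred in 2 of the 6 starts, those of Gbp7 (106 and 87 bases before) and Gbp5 (245 and 52 bases before), against 7.02% of all windows (2306 of 32851), and no match of one motif overlapped the other. TCCC, 2 bases of any kind and GGGA, a core of the EBF motif, occurred in 0 of the 6 starts and in 0.779% of all windows, which says only that these letters are not in these windows. A match is a description of the sequence and does not show that a factor was bound.

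Libraries held from 28982316 to 38999496 reads in exons. Levels are given as CPM, reads scaled to library size with TMM factors, so each is a share of the RNA of its library, and fewer cells of a type and less RNA per cell cannot be told apart. Log2 changes and their standard errors (SE) come from edgeR's quasi-likelihood fit of all 12889 tested genes, dTAG-13 against DMSO. Genes are called changed at a Benjamini-Hochberg adjusted p below 0.05. The cells carried transcripts of early B cells such as Vpreb1, a surrogate light chain gene (133 CPM ± 10.4 in DMSO, SD, n = 4). Ebf1 RNA was 623 CPM ± 13.9 in DMSO and 767 ± 38.5 with dTAG-13 (log2 change 0.30 ± 0.04), a value that does not measure the protein that the compound acts on.

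Exonic RNA of 6 of the 9 members was higher in every dTAG-13 library than in any DMSO library, and the sum over the family was 1.63 times as high. Of the 8 members with enough exonic reads for the fit, 6 were called higher and 0 lower, while 14.3% of all 12889 tested genes were called higher, 14.0% lower and 28.3% in either direction; these counts come from the contrast that the genes were chosen on, and nothing is read from them. The groups were apart in the same 6 genes, as in 14.2% of tested genes with higher values. The median log2 change of the 8 was 0.49, beside -0.003 over all tested genes. Summed over all 9 genes, DMSO replicates held 329, 324, 315 and 321 CPM, and dTAG-13 replicates 562, 509, 510 and 521 CPM. The groups did not overlap, and the means were 323 ± 5.62 and 526 ± 25.0 CPM (SD, n = 4 each). The chromosome 3 genes went from 289 ± 4.61 to 484 ± 25.2 CPM, a ratio of 1.68, and the chromosome 5 genes from 34.0 ± 1.94 to 41.9 ± 2.27 CPM, a ratio of 1.23.

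**Figure D1:**
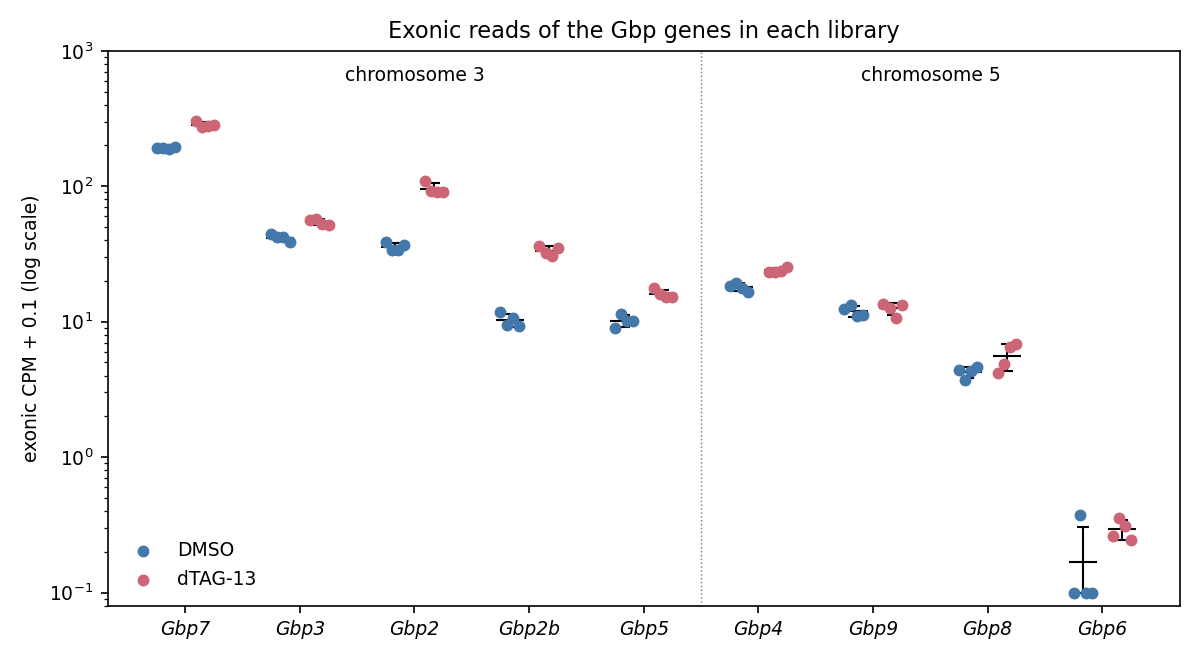
Exonic CPM plus 0.1 on a log scale for the 9 Gbp genes, 1 point per library, DMSO and dTAG-13 side by side; horizontal marks are group means, whiskers are 1 SD, and the dotted line parts the chromosome 3 genes from those of chromosome 5. Gbp2 and Gbp2b show the widest gaps between groups, Gbp8 and Gbp9 overlap, and Gbp6 lies near the lower end of the axis.

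Gbp2b and Gbp2, neighbours on chromosome 3, had the largest exonic changes of the family and were its 2 members with at least a 2-fold rise, a size that 1.54% of tested genes reached with a call. Gbp2b is the gene formerly named Gbp1. Its exonic level was 11.7, 9.36, 10.6 and 9.22 CPM in DMSO and 36.1, 31.8, 30.5 and 34.8 CPM with dTAG-13. The lowest dTAG-13 library thus stood far above the highest DMSO library. Its log2 change was 1.71 ± 0.08 (fitted fold change 3.27), and 0.334% of tested genes rose more. Gbp2, known for its part in the control of Toxoplasma in mice, measured 38.6, 34.0, 33.6 and 36.8 CPM in DMSO and 110, 91.7, 91.3 and 90.1 CPM with dTAG-13. Here too the groups were widely apart, and dTAG-13 replicate 1 was the highest library. The log2 change of Gbp2 was 1.42 ± 0.06 (fitted fold change 2.68), with 0.698% of tested genes rising more. Within each library the ratio of Gbp2b to Gbp2 exonic reads was 0.286 ± 0.0285 in DMSO and 0.349 ± 0.0259 with dTAG-13, again without overlap between the groups. Together Gbp2 and Gbp2b went from 45.9 ± 3.07 to 129 ± 11.5 CPM.

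Gbp7, described as a factor that brings NADPH oxidase subunits to phagosomes, supplied most of the family's reads in both groups. Its exonic level was 190, 192, 187 and 195 CPM in DMSO and 302, 272, 280 and 284 CPM with dTAG-13. The groups did not overlap, and the log2 change was 0.58 ± 0.04. Its share of the family's exonic reads was 59.2% in DMSO and 54.1% with dTAG-13, while that of Gbp2 was 11.1% and 18.2% and that of Gbp2b 3.16% and 6.33%. Per library, Gbp2 reads were 0.187 ± 0.0113 of Gbp7 reads in DMSO and 0.336 ± 0.0208 with dTAG-13, with no overlap. Gbp3, the closest relative of Gbp7 in coding sequence, had 44.3, 42.0, 41.9 and 38.4 CPM in DMSO and 55.9, 57.0, 52.8 and 51.6 CPM with dTAG-13. All dTAG-13 values of Gbp3 lay above all DMSO values, with a log2 change of 0.38 ± 0.05. Its ratio to Gbp7 was 0.218 ± 0.0153 and 0.191 ± 0.0125, and there the groups overlapped.

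Gbp5, which promotes NLRP3 inflammasome assembly, was 8.95, 11.3, 9.97 and 10.0 CPM in DMSO and 17.5, 15.8, 15.1 and 15.2 CPM with dTAG-13. Every dTAG-13 library was higher than every DMSO library, and the log2 change was 0.66 ± 0.09. Gbp4, on chromosome 5, was 18.4, 19.2, 17.7 and 16.4 CPM in DMSO and 23.3, 23.0, 23.4 and 25.3 CPM with dTAG-13. Its groups did not overlap, and its log2 change was 0.41 ± 0.07.

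Gbp9 and Gbp8, which enclose Gbp4, were the 2 fitted members not called. Gbp9 had 12.2, 13.1, 10.9 and 11.1 CPM in DMSO and 13.4, 12.6, 10.6 and 13.2 CPM with dTAG-13, with libraries of both groups interleaved. The log2 change was 0.08 ± 0.09, and the range of 2 SE around it runs from -0.10 to 0.26, which does not reach the change of Gbp4. Gbp8 had 4.32, 3.59, 4.20 and 4.49 CPM in DMSO and 4.11, 4.80, 6.36 and 6.69 CPM with dTAG-13. The 2 highest Gbp8 libraries are dTAG-13 replicates 3 and 4, while replicate 1 lay among the DMSO libraries. Its log2 change was 0.40 ± 0.15, as large as that of Gbp4 but with a range of 2 SE from 0.09 to 0.71, and it is called without dTAG-13 replicate 1 or replicate 2. The ratio of Gbp9 to Gbp4 exonic reads was 0.659 ± 0.0308 in DMSO and 0.524 ± 0.0522 with dTAG-13, without overlap, whereas that of Gbp8 to Gbp4 was 0.233 ± 0.0355 and 0.230 ± 0.0458.

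Gbp6 was near the detection limit. It had 0, 8, 0 and 0 exonic reads in DMSO and 6, 10, 8 and 5 with dTAG-13, too few for the fit. Gbp10 had 0 exonic reads in every DMSO library and 1, 0, 0 and 2 with dTAG-13, Gbp11 had 0, 1, 4 and 6 and then 7, 5, 12 and 9, and Gbp2-ps had 0 in all 8 libraries. A count of 0 allows up to 3 reads in a library, or 0.104 CPM at the lowest depth, with counting error alone considered. No fold is given for these genes.

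Levels of different genes are comparable only per length of exon. On this scale the family spanned a wide range, and the order of the group means was the same in both groups. Gbp7 led with 34.0 CPM per exonic kilobase in DMSO and 50.7 with dTAG-13, at percentiles 92.3 and 95.4 of the 9295 tested genes with a length. Gbp2 followed with 14.2 and 38.1 CPM per kilobase (percentiles 78.7 and 93.5) and Gbp3 with 12.8 and 16.6. Gbp2b had 3.62 and 11.8 CPM per kilobase, percentiles 43.8 and 74.5, so the largest log2 change belonged to a gene of middle rank in DMSO. Gbp4 had 2.39 and 3.17, Gbp9 2.28 and 2.41, Gbp5 1.52 and 2.40, and Gbp8 1.21 and 1.59 CPM per kilobase. Gbp6 came last in both groups. Neighbours in this order that overlapped between libraries were Gbp2 and Gbp3, and Gbp4 and Gbp9, in DMSO, and Gbp9 and Gbp5 with dTAG-13.

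Intronic reads, the whole-gene count minus the exonic count, include unspliced RNA and, in Gbp8 and Gbp9, the reads of a gene inside their introns, described further on. Of the 9 members, all tested in the intronic fit of 11229 genes, 8 were called higher, beside 8.26% of all tested genes called higher and 16.8% called in either direction. The same contrast chose the genes, so nothing is read from this count, which is 7 once the inner gene's reads are subtracted. In 8 members the groups were apart, as in 9.51% of tested genes with higher values, and the median log2 change was 0.62. Gbp2b went from 5.14 ± 1.19 to 17.4 ± 1.83 intronic CPM (log2 change 1.75 ± 0.18). Gbp2 had 9.76, 11.7, 12.3 and 9.13 intronic CPM in DMSO and 39.8, 36.4, 31.7 and 35.7 with dTAG-13 (1.74 ± 0.13), so the intronic change of the pair was alike. The intronic log2 change was 0.62 ± 0.08 in Gbp7, 0.55 ± 0.17 in Gbp5, 0.50 ± 0.13 in Gbp3 and 0.81 ± 0.14 in Gbp4. Gbp5 loses its intronic call without DMSO replicate 2 or 4 or dTAG-13 replicate 3, at values of at least 0.44. Gbp6, not called, had 3.06, 1.55, 0.996 and 1.48 intronic CPM in DMSO and 4.66, 1.35, 3.55 and 3.11 with dTAG-13, with overlap. In the authors' deposited table, 6 members have an exonic and 8 an intronic adjusted p below 0.05. That table rests on the same reads and contrast, so nothing is read from these counts either. Its 8 intronic members include Gbp9, which was not called here once the inner gene's reads were subtracted.

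The share of a gene's reads that fell in introns was 8.61% for Gbp2, 10.4% for Gbp3, 13.6% for Gbp2b, 19.3% for Gbp5, 21.0% for Gbp7 and 21.7% for Gbp4 in DMSO. For Gbp9 it was 69.4% as deposited and 24.4% ± 2.34 with the inner gene's reads subtracted, and for Gbp8 it was 91.6% and 62.4% ± 2.28. Gbp6 had 90.5% ± 19.0 on very few reads, and 1726 of its 5954 exonic bases lie in exons of genes outside the family. In Gbp7, 637 of 5614 exonic bases lie in such exons, with exons of either strand considered. Whether reads in such shared exons entered the exonic count of either gene is not known, and any left out would be among its intronic reads. With no reads subtracted, the exonic minus the intronic log2 change was below 0 in 7 of the 8 members fitted in both classes. Nothing is read from this count. The difference was -0.33 ± 0.12 in Gbp2, -0.43 ± 0.16 in Gbp4 and -0.45 ± 0.10 in Gbp9. In the remaining 5 its size was no larger than about its SE: -0.14 ± 0.13 in Gbp3, -0.06 ± 0.18 in Gbp2b, -0.06 ± 0.07 in Gbp7, -0.03 ± 0.16 in Gbp8 and 0.10 ± 0.20 in Gbp5. These differences are given with no test, since both parts belong to the contrast that chose the genes; over all 10026 genes fitted in both classes, 0.279% were called.

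**Figure D2:**
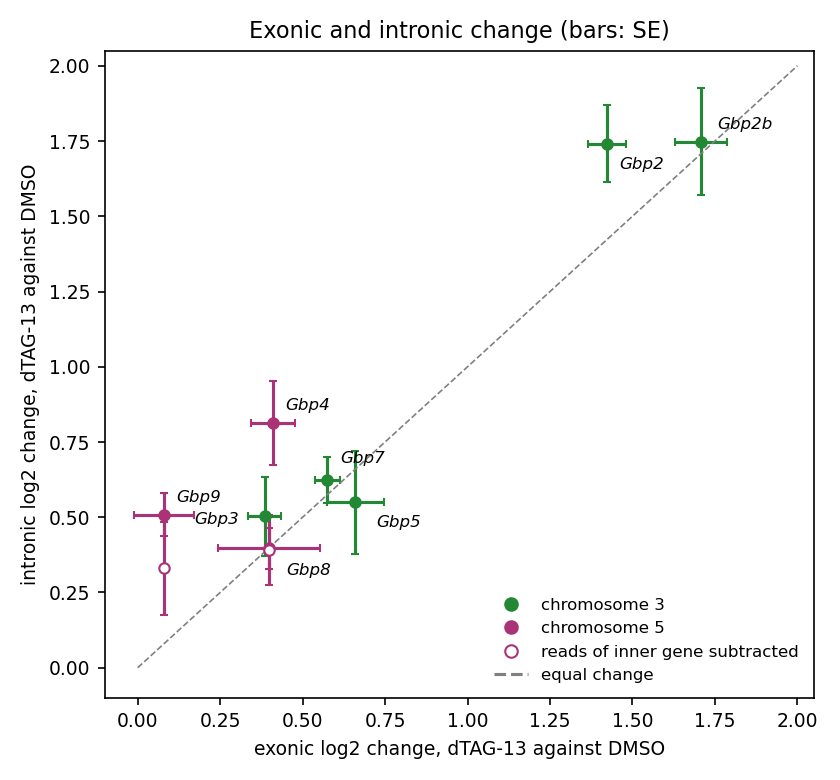
Exonic (horizontal axis) against intronic (vertical axis) log2 change of the 8 Gbp genes fitted in both classes, with bars of 1 SE, coloured by chromosome; the dashed line marks equal change and open symbols show Gbp8 and Gbp9 after the reads of the gene inside their introns were subtracted. Gbp2 and Gbp2b stand apart at the upper right, and Gbp9 lies farthest above the line before subtraction.

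Gbp8 and Gbp9 have nested gene spans. Gbp4 spans 23820 bases, of which all but 47 lie inside Gbp9, and the 61910 bases of Gbp9 lie wholly within the 125391 bases of Gbp8. The first exons of these 3 genes share 60 or 61 bases, so isoforms of all 3 begin in nearly the same place. The introns of Gbp8 hold 12500 bases of exons of Gbp9 and Gbp4, and those of Gbp9 hold 7387 bases of Gbp4 exons. Gbp4 nevertheless had between 652 and 1267 whole-gene reads per library, so reads in the nested region were counted for each gene that spans it. The whole-gene reads of Gbp4 equalled 83.5% to 89.6% of the intronic reads of Gbp9, and those of Gbp9 82.5% to 88.0% of the intronic reads of Gbp8. Subtracting the inner gene's reads left 106 to 245 intronic reads per library for Gbp9. Its intronic level then went from 12.2 ± 1.41 to 15.3 ± 2.82 CPM, and its log2 change fell from 0.51 ± 0.07 to 0.33 ± 0.15, which is not called. Its exonic minus intronic change became -0.26 ± 0.18. For Gbp8 the subtracted intronic change was 0.39 ± 0.12, from 0.40 ± 0.07, and stayed called. Unspliced RNA of Gbp8 or Gbp9 that crosses Gbp4 cannot be told apart from RNA of Gbp4 itself in these counts. A similar overlap holds for Gbp6 and Gbp10, which share exons with the spanning gene Gm43302: this gene had 0 exonic reads, and its 15 to 63 whole-gene reads per library differed by at most 6 from the sum of Gbp6 and Gbp10.

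**Figure D3:**
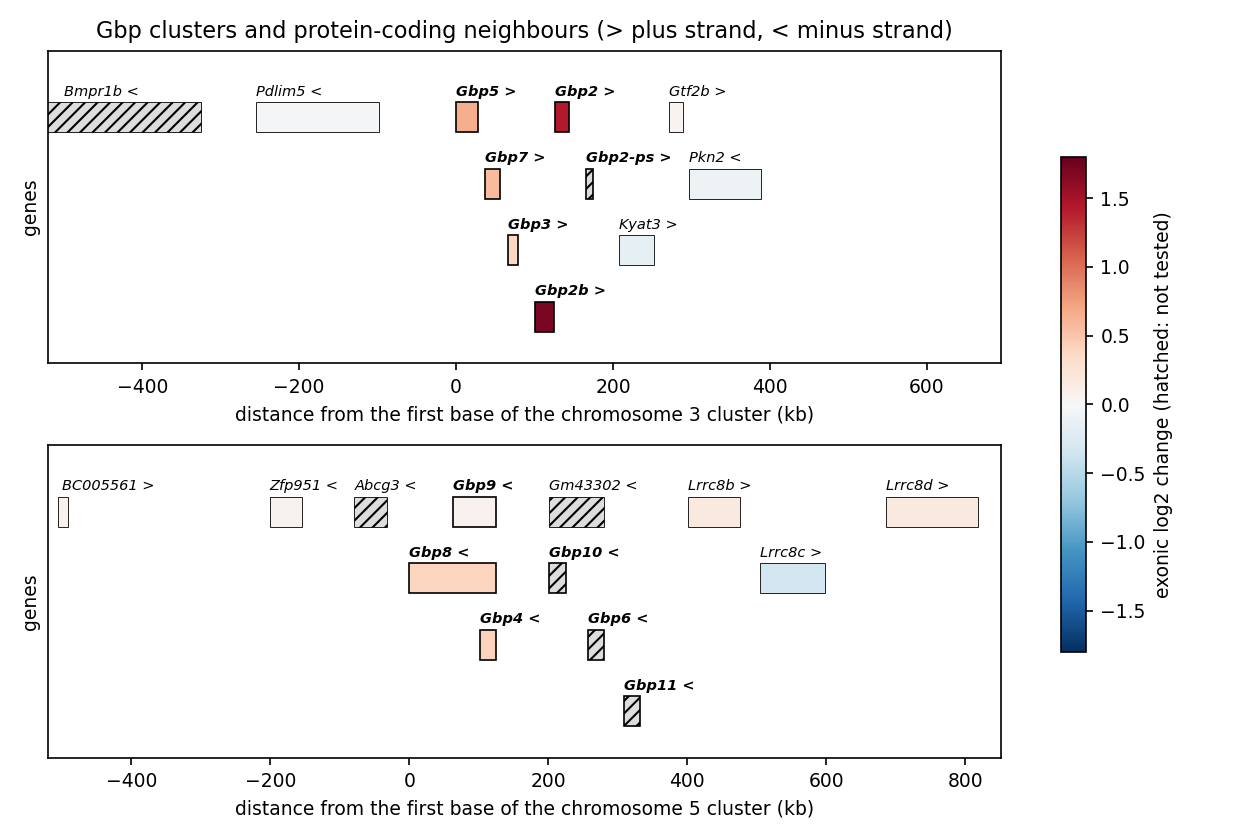
Maps of the Gbp clusters on chromosome 3 and chromosome 5 with the protein-coding genes within 500 kb, drawn to scale as distance from the first base of each cluster and coloured by exonic log2 change, with genes that were not tested hatched. Gbp4 lies inside Gbp9 and Gbp9 inside Gbp8, and the deepest colours belong to Gbp2b and Gbp2.

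Near-identical copies can trade reads, and the family differs in how far this applies. Coding sequences of Gbp2 and Gbp2b were 82.5% identical, and 2.03% of the 50-base windows of Gbp2 transcripts and 1.84% of those of Gbp2b occurred in another Gbp gene. Gbp7 and Gbp3 were 78.5% identical and shared 2.26% and 3.75% of windows, and Gbp5 shared 0%. On chromosome 5 the shared windows were 7.53% for Gbp4, 8.05% for Gbp9 and 18.1% for Gbp8, with coding identities of 92.9% between Gbp8 and Gbp4 and 90.2% between Gbp9 and Gbp4. Gbp6 shared 49.9% of its windows, mostly with Gbp10, at 98.4% coding identity, and Gbp8 and Gbp11 were 96.0% identical. How reads with several matches were counted is not given in the sources used here. Values of the chromosome 5 genes, and of Gbp6 above all, are therefore uncertain, while Gbp2, Gbp2b, Gbp3, Gbp5 and Gbp7 had at most 3.75% of windows in common with a relative.

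**Figure D4:**
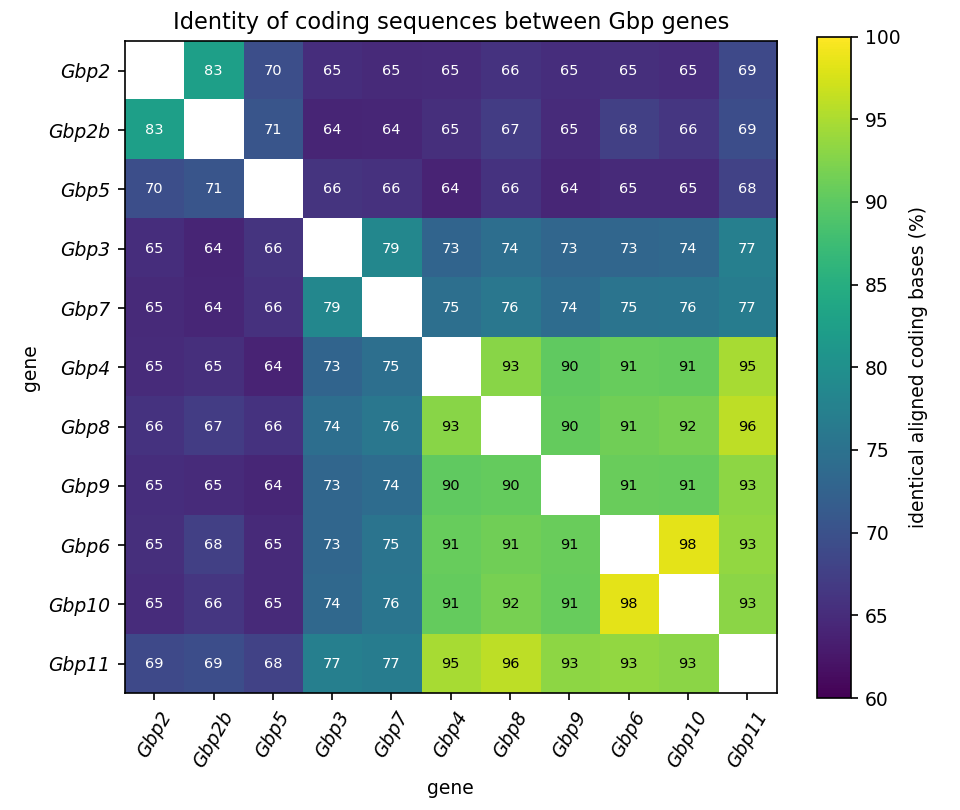
Percent identity of aligned coding bases for each pair of 11 Gbp genes with a coding sequence, coloured by identity, chromosome 3 genes before chromosome 5 genes on both axes. The chromosome 5 genes form a block of high identity that reaches 98.4% for Gbp6 and Gbp10, and the chromosome 3 pairs Gbp2 with Gbp2b and Gbp3 with Gbp7 stand at 82.5% and 78.5%.

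Genes of the pathways in which these proteins act were taken from lists that were chosen with earlier results of these data known. Most genes named from a list are those with its smallest p, so the counts and p-values are a description. Calls come from the same exonic fit, in which 28.3% of genes were called, 14.3% higher and 14.0% lower, and the median was -0.003. The closest functional relatives, the other interferon-inducible large GTPases, were all called higher: 9 of the 9 tested genes, with a median log2 change of 0.76, and 8 of them without DMSO replicate 3 or dTAG-13 replicate 2. Igtp, an immunity-related GTPase that guards host membranes, went from 10.2 ± 0.887 to 21.9 ± 2.20 CPM (log2 change 1.11 ± 0.09, edgeR adjusted p = 5.7e-11). Its relative Irgm2 had 10.5, 9.91, 9.42 and 8.55 CPM in DMSO and 20.8, 20.2, 17.8 and 17.7 CPM with dTAG-13 (1.00 ± 0.08, edgeR adjusted p = 3.4e-10). Tgtp2, which has a near-identical copy in Tgtp1, changed by 0.76 ± 0.12 and Ifi47 by 0.39 ± 0.06. In each of these 4 genes all dTAG-13 libraries exceeded all DMSO libraries. The dynamin-like antiviral genes Mx1 and Mx2 were too low to test, Mx1 with 0 reads in every library.

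The interferon genes on the ligand list were not detected, and other interferon genes were not examined here. The list of 12 ligands holds interferons, including Ifng and Ifnb1, all with 0 reads in every library, and the interleukin genes Il12a, Il12b, Il18 and Il27. In all, 9 of the 12 had 0 reads, and the 1 tested gene, Il12a, which encodes a subunit of an inducer of interferon-gamma, rose by 0.27 ± 0.09 (edgeR adjusted p = 0.024). The Il12a groups overlapped, and the call is lost without any 1 of 5 libraries (DMSO replicates 1, 2 and 4, dTAG-13 replicates 2 and 3). Receptors and signalling genes split, with 7 called higher, 6 lower and 4 not called of 17 tested, and a median of 0.06. Irf1, which activates Gbp genes, rose from 32.0 ± 1.67 to 43.9 ± 2.94 CPM (0.46 ± 0.05, edgeR adjusted p = 2.0e-07). The 2 chains of the interferon-gamma receptor moved in opposite directions, Ifngr1 by 0.37 ± 0.04 and Ifngr2 by -0.37 ± 0.04. Among inhibitors of the pathway 4 were called higher and 1 lower of 9 tested, with a median of 0.13. Socs1, which blocks JAK kinases, rose from 38.3 ± 0.815 to 63.6 ± 3.34 CPM (0.73 ± 0.05, edgeR adjusted p = 9.2e-13), and Socs3 fell from between 47.2 and 54.8 CPM to between 27.4 and 31.8 CPM (-0.73 ± 0.06, edgeR adjusted p = 6.4e-11). The phosphatase gene Ptpn6 rose by 0.70 ± 0.04 and Pias3 by 0.28 ± 0.06.

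Of the antiviral interferon-stimulated genes, 4 were called higher and 0 lower of 15 tested, with a median of 0.18; a further 9 of the 24 listed were too low to test. Samhd1, which depletes deoxynucleotides, rose from 10.1 ± 1.28 to 19.0 ± 1.08 CPM (0.90 ± 0.09, edgeR adjusted p = 3.5e-09). Oasl2 was 0, 0.207, 0.0261 and 0.0541 CPM in DMSO and 0.761, 0.536, 0.857 and 0.915 CPM with dTAG-13 (edgeR adjusted p = 2.8e-05), at no more than 33 reads in a library. The RNA sensor gene Ddx58 rose by 0.31 ± 0.07 and Xaf1 by 0.32 ± 0.08. The list had 7 called genes with no filter on low counts and without DMSO replicate 2. Whether this list differs from the GTPases was not tested.

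Genes with which the proteins work in cells were measured too. The inflammasome and pyroptosis list had 7 of 9 tested genes called higher and 0 lower, with a median of 0.40, and at least 5 called with 1 library left out. Casp1, the inflammasome protease, rose from 22.8 ± 1.82 to 34.1 ± 3.52 CPM (0.58 ± 0.07, edgeR adjusted p = 2.6e-07), and the lipopolysaccharide receptor gene Tlr4 from 46.2 ± 1.81 to 67.8 ± 1.84 CPM (0.55 ± 0.04, edgeR adjusted p = 7.0e-11). Casp8 rose by 0.33 ± 0.04 and Nlrp1b by 0.43 ± 0.10, whereas the sensor gene Nlrp3 and the adaptor gene Pycard, which were named after their values were seen, had at most 7 and 1 reads in a library. The list of autophagy conjugation genes, which help place these proteins on vacuoles, also holds Rnf213 and Ube2l6 from outside that pathway. Of its 12 tested genes 4, Rnf213 among them, were called higher and 0 lower, with a median of 0.04. Rnf213, a ubiquitin ligase for bacterial lipopolysaccharide, rose by 0.37 ± 0.05, Atg10 by 0.85 ± 0.20 and Gabarapl1 by 0.17 ± 0.04. Gabarap rose by 0.14 ± 0.04, with overlapping groups, and its call is lost without DMSO replicate 1, DMSO replicate 4 or dTAG-13 replicate 3. Prenylation, the lipid attachment that some of the proteins receive, had 1 gene higher and 2 lower of 8 tested, with a median of 0.03. Icmt changed by 0.18 ± 0.04 and Zmpste24 by -0.25 ± 0.04, and Pggt1b by -0.19 ± 0.06, a call lost without DMSO replicate 2, DMSO replicate 3 or dTAG-13 replicate 3. Fnta, at 0.09 ± 0.05, was not called. In the structurally related atlastins and dynamins 2 genes were higher and 1 lower of 10 tested, with a median of -0.02. Atl2 fell by 0.46 on the log2 scale, Dnm1l rose by 0.13 ± 0.04 and Dnm2 by 0.15 ± 0.04, the last called no longer without DMSO replicate 1, and Opa1, at -0.07 ± 0.04, was not called.

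**Figure D5:**
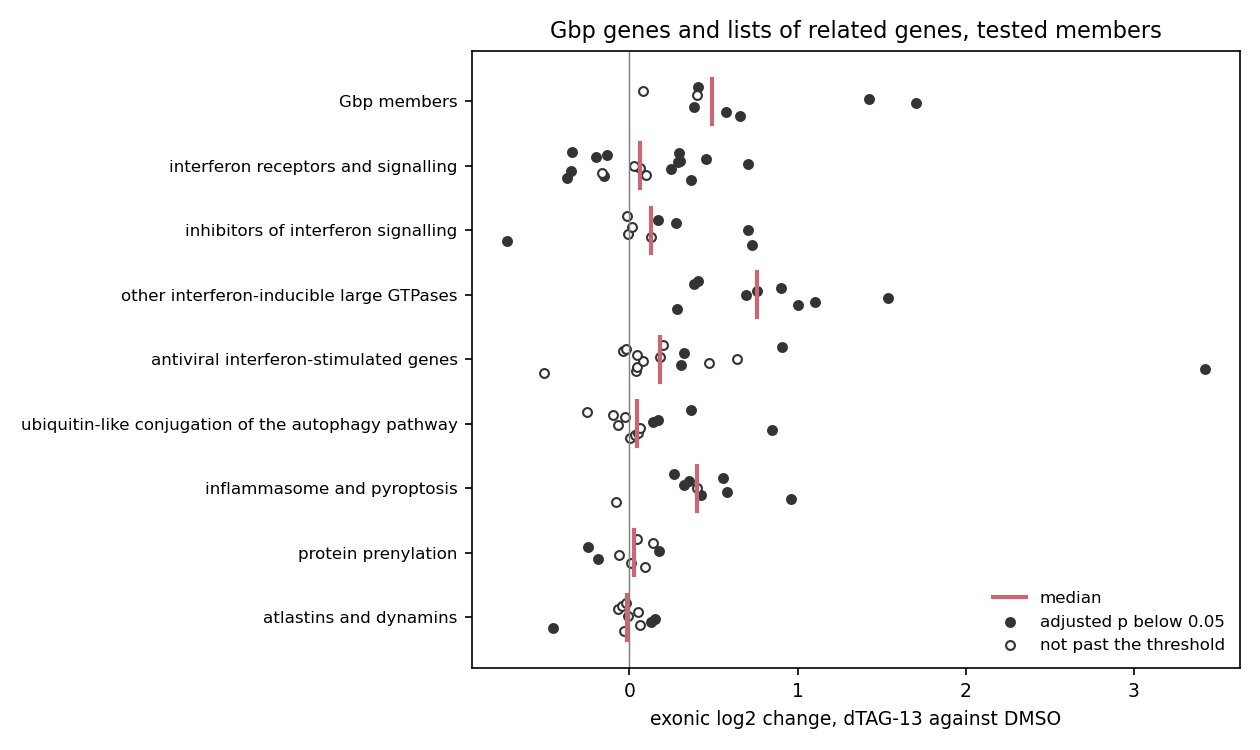
Exonic log2 change of the tested genes in each list, 1 point per gene, filled where the adjusted p is below 0.05 and open where it is not, with a bar at the list's median. The other interferon-inducible GTPases lie to the right of 0 in all 9 points, with a median of 0.76, and the receptors and signalling genes lie on both sides, with a median of 0.06.

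Markers of other cell types that could express Gbp genes were mostly absent. Macrophage and monocyte markers summed to between 4.08 and 4.62 CPM in DMSO and between 3.52 and 4.37 CPM with dTAG-13. Most of this was Cd68 (4.02 ± 0.282 CPM in DMSO and 3.21 ± 0.427 with dTAG-13), with Cd14 and Marco at 0 reads. Of the 2 tested genes of this list, Cd68 was not called (-0.33 ± 0.16), and Lyz2 was 0.236 ± 0.0934 and 0.575 ± 0.220 CPM, a call lost without any 1 of 5 libraries (DMSO replicates 1, 2 and 4, dTAG-13 replicates 1 and 3). Neutrophil markers were at 0 in 5 of 6 genes, erythroid markers in 4 of 6, and T and NK cell markers in 7 of 10, including Cd3e and Ncr1. The sum of the T and NK list was between 0.346 and 0.794 CPM in DMSO and between 0.816 and 1.57 CPM with dTAG-13. In it Klrb1c was 0.197 ± 0.0665 and 0.508 ± 0.157 CPM, a call lost without DMSO replicate 1, 2 or 4 or dTAG-13 replicate 3 or 4, and Prf1 (edgeR adjusted p = 0.051) is called without DMSO replicate 2 or with the replicate block. The dendritic cell list rested on Ccr7, a chemokine receptor gene also used by B cells, at 18.7 ± 1.45 and 39.8 ± 1.02 CPM, with Clec9a at 0 reads. The stromal and endothelial list rested on Pecam1, at 66.2 ± 2.11 and 96.4 ± 2.22 CPM, with 5 of 8 genes at 0 reads. B-lineage markers were called lower in 8 and higher in 1 of 11 genes, with a median of -0.54: Igll1 by -2.39 ± 0.04, Vpreb1 by -1.63 ± 0.05 and Rag1 by -1.06 ± 0.07. Their part in the change of the Gbp genes was not tested.

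Within 500 kb of the outermost Gbp genes lie 12 other protein-coding genes, 9 of them tested and 3 called, a share near the 28.3% of all tested genes. On chromosome 3 the 4 tested neighbours were not called: Pdlim5 at -0.03 ± 0.06 (edgeR adjusted p = 0.74), Kyat3 at -0.16 ± 0.08 (0.12), Gtf2b at 0.05 ± 0.05 (0.52) and Pkn2 at -0.09 ± 0.04 (0.068), although Kyat3 passes without dTAG-13 replicate 1. On chromosome 5 the volume-regulated anion channel gene Lrrc8c fell from 161 ± 4.80 to 127 ± 4.09 CPM (-0.33 ± 0.04, edgeR adjusted p = 7.3e-08). Its relatives Lrrc8b (0.18 ± 0.05, edgeR adjusted p = 0.0088) and Lrrc8d (0.17 ± 0.05, edgeR adjusted p = 0.0086) rose, but Lrrc8d is not called with whole-gene counts (edgeR adjusted p = 0.46). BC005561 at 0.07 ± 0.10 and Zfp951 at 0.06 ± 0.17 were not called, and Bmpr1b, Abcg3 and Gm43302 had 0 exonic reads. Across the 8 libraries, the genes outside the family whose centred log2 CPM lay closest to that of Gbp7 were St8sia4, Cltc and Arid3a, at root mean square distances of 0.0361, 0.0372 and 0.0381 among 10861 candidates. The distance is a measure of likeness in these libraries only.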

How the data were processed

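Raw read counts per gene, over exons and over whole genes, were deposited by the authors from stranded libraries of ribosomal-RNA-depleted total RNA, per the labels' protocols. Tools named in the submitters' processing notes are STAR 2.7.4a, featureCounts, Subread 2.0.0, SAMtools 1.10, DESeq2 and deepTools 3.3.2. Builds named there are GRCm38.p4 and mm10. The counting of reads that match several genes, of overlapping genes and of strand is not given in the sources used here. The authors' deposited table holds log2 fold changes, standard errors and p-values for exonic and intronic reads, per the file headers.

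Intronic counts were computed as whole-gene minus exonic counts, and all 8 libraries entered each fit. The test of counts was edgeR 4.0.16 under R 4.3.3 (quasi-likelihood F test, TMM factors, filterByExpr with a minimum count of 10 and total of 15, treatment as the only term, Benjamini-Hochberg threshold 0.05). The difference of exonic and intronic change was fitted over 16 columns with the library as a block. Alternatives were DESeq2 1.42.0, RLE factors, no filter on low counts, whole-gene counts, a replicate block and each library left out. The scripts were tested on simulated data. The median SE was 0.07 in exonic and 0.11 in intronic log2 changes, and counts of replicates differed by more than sampling noise.

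The members and the gene lists were chosen with earlier results of these data known. Named genes are all members, up to 4 genes with the smallest p per list, the tested neighbours, Ebf1 and the 3 nearest patterns to Gbp7. Some genes under this rule are not reported here. Symbols came from the authors' table for 19321 IDs and from reference names for 27914. Subtraction of nested reads was added after the data were seen. Protein sequences were not used here.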

Additional observations from a re-analysis of the deposited data

Results flagged for a closer look

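In 8 of 146 groups of 4 libraries examined, 1 library lay far from the other 3; chance gives about 1 in 20. Exonic Gbp2 was 110 CPM in dTAG-13 replicate 1, beside 91.7 CPM in the next library, and its log2 change without that library is 1.35. The summed chromosome 3 genes were 521 CPM in the same library, beside 476 CPM in the next. The summed chromosome 5 genes were 45.3 CPM in dTAG-13 replicate 4, beside 41.0 CPM in the next. Exonic Gbp6 was 0.276 CPM in DMSO replicate 2 and 0 in the other DMSO libraries. Among related genes with dTAG-13, Igtp was 18.6 CPM in replicate 4 (next 22.7 CPM), Casp1 28.8 CPM in replicate 2 (next 35.7 CPM) and Tlr4 65.1 CPM in its lowest library (next 68.5 CPM). The neighbour Zfp951 was 2.7 CPM in its lowest DMSO library, with 3.49 CPM in the next.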

How the results depend on the processing

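All 221 values of single members under the alternatives kept their direction, and 3 moved by more than the replicate spread: Gbp4 to 0.51 and Gbp9 to 0.37 with whole-gene counts, and intronic Gbp9 to 0.33 with nested reads subtracted. Exonic members called numbered 6, or 7 with no filter on low counts and 8 with whole-gene counts, where 3352 genes were called in all. Whole-gene counts of Gbp9 and Gbp8 include the reads of the gene inside their introns, so nothing is read from the 8 or from the move of Gbp9. With 1 library left out 6 to 7 members were called, and Gbp8 is called without dTAG-13 replicate 1 or 2. Intronic members called numbered 8, or 7 with nested reads subtracted, and 7 to 8 with 1 library left out. Cluster neighbours called numbered 3, or 2 with whole-gene counts. Exonic genes changed numbered 3649, with 3575 by DESeq2 and 3259 to 3635 with 1 library left out, and intronic genes 1881, with 1606 to 1845. Genes whose exonic and intronic changes differed numbered 28, and 11 to 25 with 1 library left out. Pairing of the libraries by replicate number was not seen, which does not exclude it. Correlations of deviations between same-numbered libraries were 0.045, 0.0035, -0.024 and 0.023, and those between libraries of different number ran from -0.088 to 0.11. With the replicate block 3753 exonic and 1937 intronic genes and 7 exonic members were called. Depth limits Gbp6, Gbp10 and Gbp11, which have at most 12 exonic reads in a library.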
